A study of Mus musculus with 16 samples.

Results

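CpG methylation was described at 10 mouse genes that encode cytokine receptor chains of lymphocytes: Il7r, Il2ra, Il2rb, Il4ra, Il6ra, Il21r, Il10ra, Il18r1, Il27ra and Ifngr1. They were chosen by name, with earlier results of these data known. All 10 were found among the 21938 protein-coding genes of the GENCODE vM21 annotation on chromosomes 1-19, X and Y of mm10. The data were whole genome bisulphite libraries from the spleens of C57BL/6J mice that were 6 to 8 weeks old, with no allele or treatment that set the groups apart. The 8 B cell libraries held CD43- B cells and the 8 T cell libraries held CD4+ CD62L+ T cells, both isolated on magnetic columns. Each cell type had 4 female and 4 male libraries, and 4 bisulphite (BS) and 4 oxidative bisulphite (oxBS) libraries, so that each combination of cell type, sex and assay had 2 libraries. The animals were pooled within a sex, and the labels do not say whether the 2 libraries of a combination came from separate pools or which BS and oxBS libraries share DNA, so the p-values below measure the spread between libraries, which may be technical.

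The receptors that these chains form are membrane proteins of several chains that sense a secreted cytokine. Those of Il18r1 signal through MyD88, and those of the other 9 genes through Janus kinases and STAT transcription factors. Several of the chains pair with the common gamma chain, and which chains a lymphocyte carries sets which cytokines it can sense. Methylation of CpG sites is usually low at active promoters and enhancers and high over most of the remaining genome. BS treatment leaves both methylcytosine and hydroxymethylcytosine unconverted, whereas oxBS treatment converts hydroxymethylcytosine too, so a site that holds hydroxymethylcytosine reads higher in BS than in oxBS libraries.

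The genes differed in the CpG density of their start sites. A pair of promoters is shown to set these extremes side by side, from 200 bases before the RefSeq start to 30 bases from it (GRCm38.p6, CpGs in capitals). The Il7r stretch lies at chr15:9529847-9530076 on the minus strand and holds 1 CpG, and the Il6ra stretch lies at chr3:89913167-89913396 on the minus strand and holds 21 CpGs. The table of RefSeq promoters used here matched 7 of the 10 genes, all but Il2rb, Il10ra and Il27ra.
Il7r promoter: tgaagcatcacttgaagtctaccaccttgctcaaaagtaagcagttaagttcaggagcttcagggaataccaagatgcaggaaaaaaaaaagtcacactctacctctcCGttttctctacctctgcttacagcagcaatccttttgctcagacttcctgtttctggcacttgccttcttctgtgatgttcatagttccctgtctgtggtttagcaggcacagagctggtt
Il6ra promoter: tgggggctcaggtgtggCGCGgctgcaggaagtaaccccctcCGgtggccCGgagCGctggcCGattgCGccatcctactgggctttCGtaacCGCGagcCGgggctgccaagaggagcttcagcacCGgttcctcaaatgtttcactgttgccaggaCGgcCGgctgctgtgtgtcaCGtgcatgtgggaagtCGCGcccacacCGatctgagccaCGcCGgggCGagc

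Several of the largest differences between the cell types lay away from the promoters, in stretches of 500 bp. At Il2rb the largest difference spanned the start site. Parts of 5 stretches are shown on the strand of their gene, again with CpGs in capitals, since they carry differences described below. They are not the 5 largest, as the Il21r stretch differed by -63.6 points and an Il4ra stretch that is not shown by 68.5 points. The first 3 shown had means of 78.1 to 94.8% in B cells and of 1.52 to 8.45% in T cells. They lie in intron 2 of Il7r (chr15:9524001-9524300, minus strand), in intron 9 of Il6ra (chr3:89874201-89874500, minus strand) and in intron 2 of Ifngr1 (chr10:19598139-19598438, plus strand).
Il7r intron 2: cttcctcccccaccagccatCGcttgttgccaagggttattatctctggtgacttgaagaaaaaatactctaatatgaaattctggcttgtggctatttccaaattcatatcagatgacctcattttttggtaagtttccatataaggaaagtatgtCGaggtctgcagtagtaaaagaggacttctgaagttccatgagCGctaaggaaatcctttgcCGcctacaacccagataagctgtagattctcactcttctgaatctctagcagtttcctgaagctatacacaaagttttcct
Il6ra intron 9: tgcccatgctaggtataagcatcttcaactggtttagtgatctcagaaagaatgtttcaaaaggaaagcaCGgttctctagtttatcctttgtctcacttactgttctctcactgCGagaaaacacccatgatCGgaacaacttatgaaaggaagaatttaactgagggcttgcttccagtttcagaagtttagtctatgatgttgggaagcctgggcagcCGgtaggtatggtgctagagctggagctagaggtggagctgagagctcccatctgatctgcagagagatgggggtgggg
Ifngr1 intron 2: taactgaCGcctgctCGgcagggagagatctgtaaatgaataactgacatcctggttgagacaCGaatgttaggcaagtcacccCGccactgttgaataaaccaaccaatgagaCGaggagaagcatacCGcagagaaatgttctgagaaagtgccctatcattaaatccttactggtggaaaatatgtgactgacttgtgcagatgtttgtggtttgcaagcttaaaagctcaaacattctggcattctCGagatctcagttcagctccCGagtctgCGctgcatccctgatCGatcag
The other two had the opposite pattern and lie upstream of Il10ra (chr9:45270590-45270889, minus strand) and of Il21r (chr7:125599656-125599955, plus strand).
Il10ra upstream: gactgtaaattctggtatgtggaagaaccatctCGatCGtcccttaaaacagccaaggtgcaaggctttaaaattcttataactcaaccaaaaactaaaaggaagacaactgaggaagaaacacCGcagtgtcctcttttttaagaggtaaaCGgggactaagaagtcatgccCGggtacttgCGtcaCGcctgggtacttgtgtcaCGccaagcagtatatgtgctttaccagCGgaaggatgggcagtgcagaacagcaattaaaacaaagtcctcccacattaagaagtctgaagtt
Il21r upstream: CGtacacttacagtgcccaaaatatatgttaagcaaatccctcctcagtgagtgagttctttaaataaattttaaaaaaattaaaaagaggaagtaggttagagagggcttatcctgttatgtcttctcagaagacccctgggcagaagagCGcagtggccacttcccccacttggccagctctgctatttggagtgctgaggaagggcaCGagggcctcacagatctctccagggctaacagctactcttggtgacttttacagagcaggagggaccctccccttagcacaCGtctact

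The libraries held 123346598 to 170653234 calls at reference CpGs, or 5.64 to 7.80 calls per CpG, and 78.55 to 81.5% of the calls were methylated. The labelled cell types were checked at the promoters (the transcription start site, TSS, ± 1 kb) of marker genes. All 8 B cell markers were lower in B cells, Ms4a1 (the CD20 antigen) at 13.6% against 94.2% in T cells, and 8 of 10 T cell markers were called lower in T cells, Cd3e (a chain of the T cell receptor complex) at 2.63% against 86.5% in B cells. Cd28 was at 89.4% in B cells and 91.2% in T cells, and Bcl11b was at 3.93% and 0.129%, a difference under the limit of 10 points. Cd8a and Cd8b1, which code for the CD8 co-receptor, were also lower in the CD4+ T cells, at 60.5% and 34.9% against 86.68% and 90.3%. Of the myeloid markers 1 of 6 was called (Lyz2, 46.6% in B cells and 65.0% in T cells), with 5 of 6 at an unadjusted p under 0.05. None of 4 NK cell and 3 erythroid markers was called by the quasi-binomial test, with 1 and 0 at an unadjusted p under 0.05. Of all promoters 2.94% were called and 26.1% had an unadjusted p under 0.05. The part of other cell types in the levels below was not tested.

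To ask where B and T cells differed at the receptor genes, calls were pooled over a genome-wide grid of 500 bp tiles, and the tiles from 5 kb upstream of the TSS to the gene end were taken for each gene. Of 654 such tiles, 445 passed the minimum of 3 CpGs and 20 calls in at least 5 libraries of each cell type. A tile was called when the quasi-binomial test, adjusted over the 2253019 tiles tested in the genome, gave an adjusted p under 0.05 and the mean levels differed by at least 20 percentage points (points). Differences are given as B cells minus T cells, so that a negative value is higher in T cells. Over the genome 3.07% of tiles were called, 1.96% with B cells higher and 1.11% with T cells higher. At the receptor genes 92 of 445 tiles (20.7%) were called, 81 (18.2%) with B cells higher and 11 (2.47%) with T cells higher. Each of the 10 genes had called tiles, but with at least 40 calls per library or in females alone Il7r and Il2ra had 0. No share of all genes that hold a called tile is given, so this count is not read as a trait of these genes. At 40 calls 254 receptor tiles were tested, and some called tiles dropped out untested. Examples are chr15:9527001-9527500 of Il7r (10 to 34 calls per library) and chr2:11643001-11643500 of Il2ra (15 to 32). Il7r also had 0 with 250 bp tiles, and Il2ra had 0 among males, BS or oxBS libraries alone. Il6ra, Il7r, Il2rb, Il27ra and Ifngr1 had only tiles higher in B cells, and the other 5 genes had tiles in both directions.

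**Figure D1:**
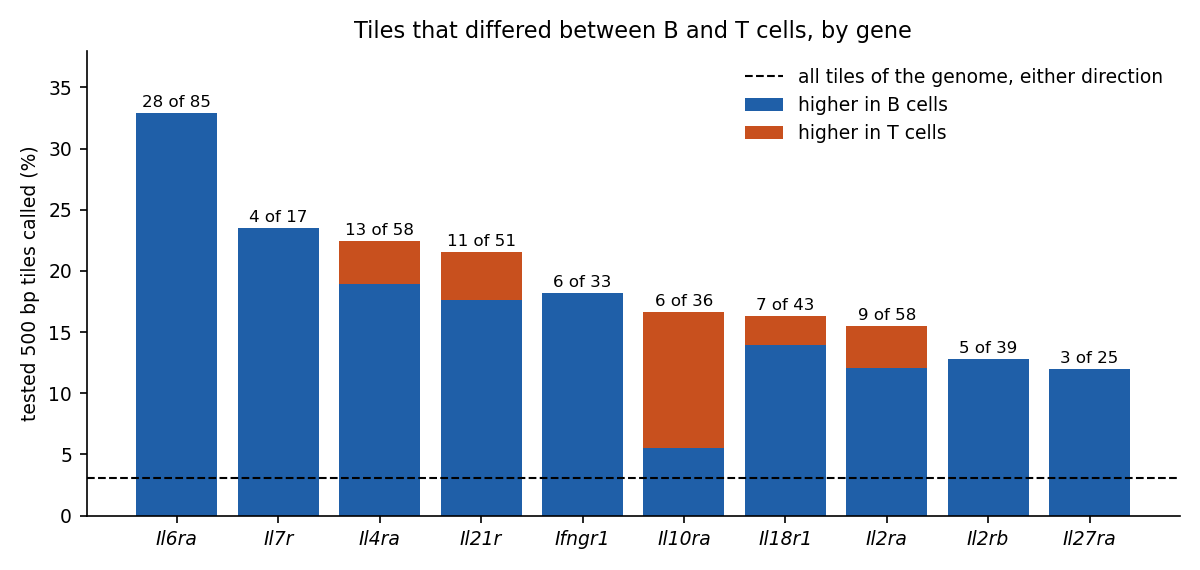
Share of tested 500 bp tiles called between B and T cells for each gene (y axis, percent), split by direction, with the number called and tested above each bar and the share over all tiles of the genome, 3.07%, as a dashed line. Il6ra had the largest share, 28 of 85 tiles, and Il10ra was the gene with more tiles higher in T cells (4) than in B cells (2).

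Of the 92 called tiles, 78 had no overlap between the B and T cell libraries. Their choice by size of difference favours this, and no such share over the called tiles of the genome is given. Among all 445 tiles tested 100 (22.5%) did not overlap, against 3.71% of the tiles in the genome. In 46 of the 81 tiles higher in B cells the B cell mean was 80% or more, and in 27 of them the T cell mean was 20% or less. The difference reached 50 points in 26 tiles. For these counts by level and size of difference no genome-wide shares are given. Of the 445 tiles 220 (49.4%) were at 80% or more in both cell types, against 79.1% of the genome's tiles, and 39 (8.76%) were at 20% or less in both, against 3.05%. The median difference over the 445 tiles was 3.18 points higher in B cells, against 0.398 points over all tiles.

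Of the 445 tested tiles 368 lay inside the genes, and 86 of these were called, while 6 of the 77 upstream tiles were. In classes that overlap with these, 81 of the 351 tiles inside a gene and more than 1 kb from the TSS and 5 of the 33 tiles within 1 kb of a TSS on either side were called. By annotation 61 of 222 intron tiles, 11 of 102 tiles with coding sequence, 13 of 44 tiles with untranslated exon sequence and 1 of 6 tiles with non-coding exons were called. Genome-wide shares for these classes of location and annotation are not given. Whether the distribution is particular to these genes was not tested. Called tiles and the others both had a median of 6 CpGs per tile, and their median depth per library was 47.8 calls against 48.5 calls for all 445 tiles. The called tiles formed 60 stretches of adjacent tiles, of which 41 were single tiles, 11 were pairs and 8 spanned 3 or more tiles. All 8 of these long stretches were higher in B cells, as were 81 of the 92 called tiles. No share over the stretches of the genome is given.

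Il7r (chr15:9505788-9530176, minus strand) codes for the alpha chain of the interleukin-7 receptor, which carries survival signals in naive T cells. Only 17 of its 58 tiles passed the filter, and 4 of them were called, all higher in B cells and centred 2926 to 6426 bp past the TSS. In the tile at chr15:9524001-9524500 in intron 2, whose sequence is given above, 5 B cell libraries with enough calls lay between 75.7 and 82.1% with a median of 79.2%. The 5 T cell libraries lay between 0 and 4.17% with a median of 0%. The groups did not overlap and differed by 77.8 points (quasi-binomial test, adjusted p = 0.000291). With the calls of the libraries pooled, the 4 CpGs of this tile were methylated in 63 of 65, 60 of 65, 22 of 57 and 24 of 29 calls of B cells, and in 0 of 66, 0 of 65, 0 of 41 and 2 of 30 calls of T cells. The 95% Wilson intervals for the 0 of 66 and the 63 of 65 were 0 to 5.50% and 89.5 to 99.2%. The tile 1 kb closer to the TSS, which reaches an exon, had B cell means of 91.4 ± 4.68% (SD, 7 libraries) and T cell means of 15.6 ± 5.57% (SD, 6 libraries).

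Il2ra (chr2:11642807-11693193, plus strand) codes for CD25, the chain that gives the interleukin-2 receptor its high affinity and that appears on activated and regulatory T cells. Of its 58 tested tiles 9 were called, 7 with B cells higher and 2 with T cells higher. The 7 tiles higher in B cells lay between 194 and 16193 bp past the TSS, 1 of them with coding sequence of the first exon and the others in intron 1. The largest difference was in intron 1 at chr2:11657001-11657500. There 6 B cell libraries ranged from 47.6 to 76.9% with a median of 71.7%, and 7 T cell libraries ranged from 8.70 to 36.0% with a median of 27.8%. The means of 68.5 ± 10.8% and 23.8 ± 9.42% (SD) differed by 44.7 points (quasi-binomial test, adjusted p = 0.00184). The tile with the largest difference in the other direction lay in intron 7 at chr2:11687501-11688000, where B cells ranged from 32.3 to 61.1% and T cells from 68.2 to 87.5%. These groups did not overlap, and their means of 48.2% and 76.0% differed by -27.8 points.

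Il2rb (chr15:78479256-78495271, minus strand) codes for the beta chain shared by the receptors of interleukin-2 and interleukin-15. Its 5 called tiles of 39 tested were all higher in B cells, and 4 of them lay between -229 and 2270 bp from the TSS. The tile that spans the TSS, chr15:78495001-78495500, had B cell libraries between 47.2 and 72.8% with a median of 63.5% and T cell libraries between 1.43 and 10.4% with a median of 6.04%. The means of 61.4 ± 7.95% and 6.06 ± 3.0% (SD, 8 libraries each) differed by 55.4 points (quasi-binomial test, adjusted p = 3.977e-07). A stretch of 3 called tiles at chr15:78493001-78494500, which spans intron 1 and untranslated exon sequence, was at 72.7 ± 3.23% in B cells and at 39.0 ± 8.21% in T cells.

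Il4ra (chr7:125552120-125579474, plus strand) codes for the alpha chain of the receptors for interleukin-4 and interleukin-13. Of 58 tested tiles 13 were called, 11 with B cells higher and 2 with T cells higher. A pair of long stretches lay in intron 1, both higher in B cells. The stretch from 1381 to 2880 bp past the TSS (chr7:125553501-125555000) had B cell libraries from 44.5 to 58.7% with a median of 49.98% and T cell libraries from 6.80 to 19.8% with a median of 13.6%. The stretch from 3881 to 5880 bp (chr7:125556001-125558000) had a B cell mean of 48.6 ± 8.64% and a T cell mean of 16.0 ± 7.59%. The largest difference in a tile of Il4ra, 68.5 points, lay further into intron 1 at chr7:125559001-125559500, with 77.1 ± 6.41% in B cells and 8.57 ± 5.23% in T cells (quasi-binomial test, adjusted p = 1.177e-07). In the other direction the largest difference, -26.0 points, lay in intron 4 at chr7:125568501-125569000, with B cells at 46.5 ± 6.74% and T cells at 72.5 ± 10.3%.

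Il21r (chr7:125603429-125633570, plus strand), the next of the receptor genes downstream of Il4ra on the same strand, codes for the receptor of interleukin-21, a cytokine of helper T cells that acts on B cells, T cells and natural killer cells. Of 51 tested tiles 11 were called, 9 with B cells higher and 2 with T cells higher. The 4 tiles of the stretch from 572 to 2571 bp past the TSS (chr7:125604001-125606000, intron 1) were at 38.6 ± 11.3% in B cells, ranging from 26.3 to 56.4%, and at 4.46 ± 3.10% in T cells, ranging from 0.559 to 8.59%. Upstream of the gene the order was the reverse. In the tile at chr7:125599501-125600000, centred at -3678 bp from the TSS, B cells ranged from 0 to 7.55% with a median of 2.94% and T cells from 51.6 to 83.58% with a median of 66.3%. The means of 3.22 ± 2.68% and 66.9 ± 12.4% differed by -63.6 points (quasi-binomial test, adjusted p = 8.194e-07). Of the 5 CpGs of this tile, 4 had no methylated call in B cells, with 0 of 68, 0 of 73 and 0 of 79 calls at those best covered, against 48 of 61, 40 of 75 and 58 of 78 calls in T cells. The other tile higher in T cells lay in intron 3 at chr7:125626001-125626500, with 8.69 ± 3.02% in B cells and 45.9 ± 10.9% in T cells.

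Il6ra (chr3:89864059-89913196, minus strand) codes for the ligand-binding chain of the interleukin-6 receptor, which signals with gp130. It had the most called tiles, 28 of 85, and all were higher in B cells. Its CpG-rich promoter was low in both cell types, with a B cell mean of 9.07% and a T cell mean of 5.12%, and the called tiles were centred 946 to 48446 bp past the TSS. A stretch of 5 tiles from 35696 to 38195 bp past the TSS (chr3:89875001-89877500, introns 8 and 9 and the exon between them) had B cell libraries from 89.6 to 95.4% with a median of 92.4% and T cell libraries from 35.4 to 58.1% with a median of 42.4%. The stretches of 3 tiles at chr3:89870501-89872000 and of 4 tiles at chr3:89906001-89908000 were at 62.9 ± 2.59% and 63.3 ± 5.36% in B cells and at 28.0 ± 7.85% and 33.9 ± 9.91% in T cells. All 3 stretches had no overlap between the cell types. The largest difference, 86.3 points, was in the tile at chr3:89874001-89874500 in intron 9, whose sequence is given above. Its 8 B cell libraries lay between 87.5 and 100% with a median of 95.6% and 7 T cell libraries lay between 1.92 and 17.5% with a median of 8.70% (quasi-binomial test, adjusted p = 7.869e-08). Each of its 5 CpGs was at 93.1 to 96.0% in B cells and at 1.64 to 19.1% in T cells, with 50 to 87 pooled calls in a cell type.

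**Figure D2:**
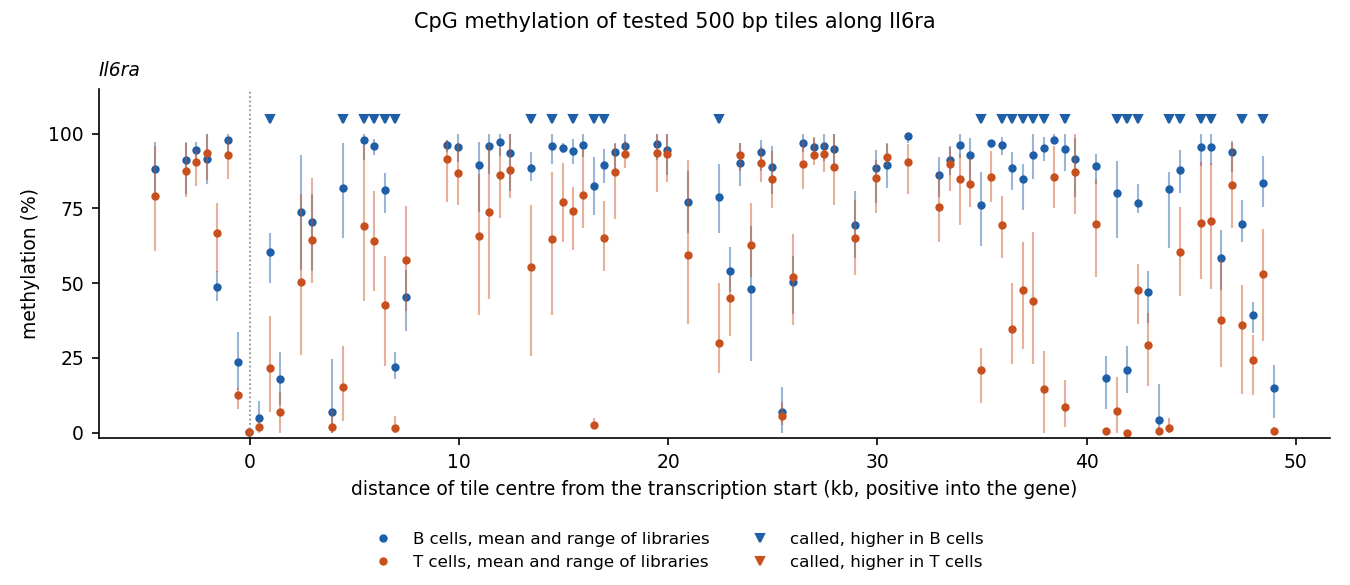
Methylation of the tested tiles along Il6ra (y axis, percent) against the distance of the tile centre from the TSS (x axis, kb, positive into the gene), with the mean and the range of the libraries for each cell type and triangles over called tiles. Both cell types were near 0 at the TSS, and the 28 called tiles, all higher in B cells, were centred 946 to 48446 bp past the TSS.

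Il27ra (chr8:84030294-84042589, minus strand) codes for a chain of the interleukin-27 receptor, which also pairs with gp130. Of 25 tested tiles 3 were called, all higher in B cells. The largest difference, 58.4 points, was at chr8:84041001-84041500, a tile with coding sequence centred 1338 bp past the TSS. There B cells ranged from 88.5 to 97.7% with a median of 94.1% and T cells from 19.7 to 54.8% with a median of 33.0% (quasi-binomial test, adjusted p = 1.757e-07). The T cell libraries were spread widely in this tile, with a mean of 45% in BS and 26.0% in oxBS libraries.

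Il10ra (chr9:45253837-45269149, minus strand) codes for the ligand-binding chain of the interleukin-10 receptor, which restrains inflammatory responses. It was the gene with more tiles higher in T cells than in B cells, 4 against 2 of 36 tested. The tile at chr9:45270501-45271000, centred at -1602 bp from the TSS, had B cell libraries between 5.77 and 17.4% with a median of 11.5% and T cell libraries between 89.8 and 100% with a median of 95.3%. The means of 11.4 ± 3.37% and 95.4 ± 3.40% (SD, 8 libraries each) differed by -84.1 points (quasi-binomial test, adjusted p = 1.74e-08). All 12 CpGs of this tile were higher in T cells, where they lay between 92.9 and 100%, while 5 of the 9 CpGs in the sequence given above had no methylated call in B cells, out of 56 to 73 calls. A second tile of this kind lay in untranslated sequence near the gene end at chr9:45254501-45255000, with 20.6 ± 8.28% in B cells and 96.1 ± 2.32% in T cells. Between them, in intron 4 at chr9:45264501-45265000, the order was the reverse, with 92.8 ± 3.46% in B cells and 36.9 ± 11.5% in T cells.

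Ifngr1 (chr10:19591949-19610229, plus strand) codes for the ligand-binding chain of the interferon-gamma receptor, found on most cells. Of 33 tested tiles 6 were called, all higher in B cells. A stretch of 3 tiles from 4052 to 5551 bp past the TSS (chr10:19596001-19597500) had B cell libraries from 53.6 to 74.3% with a median of 68.2% and T cell libraries from 22.3 to 44.3% with a median of 36.0%. The largest difference, 74.9 points, was in the next called tile, chr10:19598001-19598500 in intron 2. There B cells ranged from 70.5 to 86.8% with a median of 77.7% and T cells from 0 to 6.72% with a median of 3.74% (quasi-binomial test, adjusted p = 1.68e-08). All 11 CpGs of the tile were higher in B cells, at 65.3 to 88.2% against 0 to 27.4% in T cells.

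**Figure D3:**
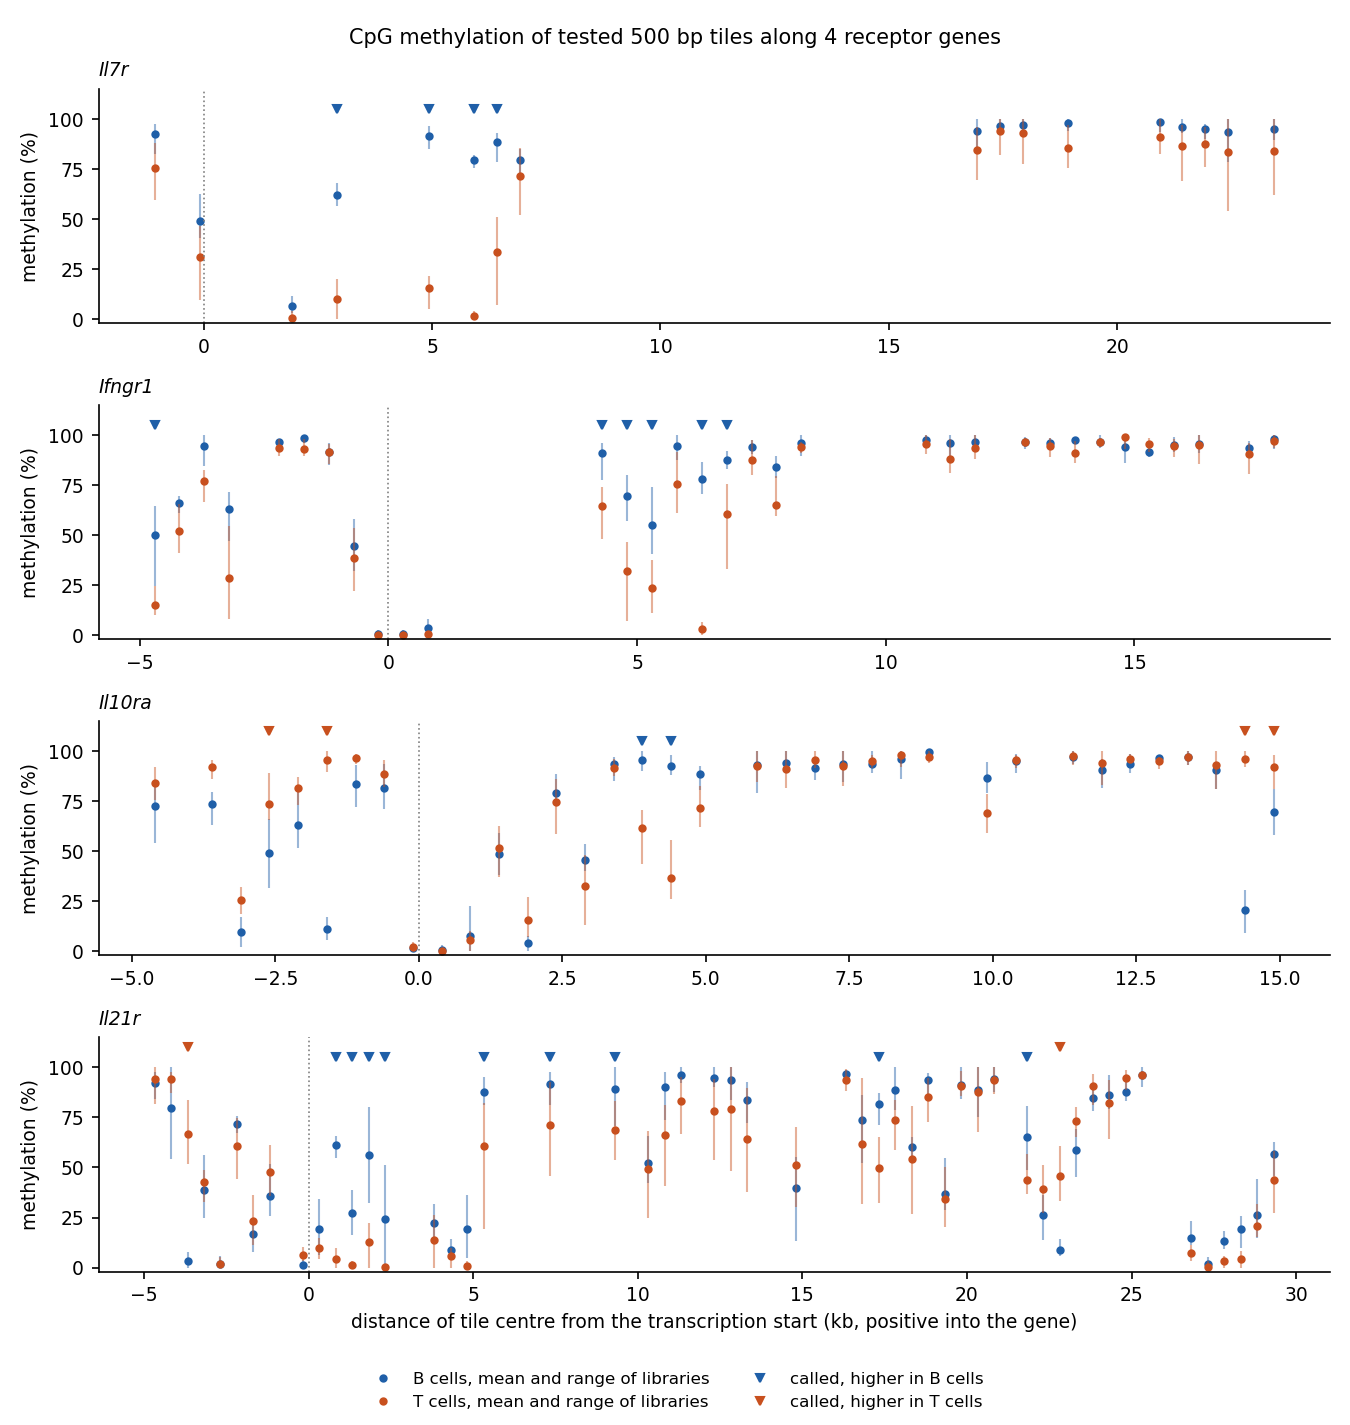
Methylation of the tested tiles (y axis, percent) of Il7r, Ifngr1, Il10ra and Il21r against the distance of the tile centre from the TSS (x axis, kb, positive into the gene), with the mean and range of the libraries for each cell type and triangles over called tiles. Called tiles of Il7r and Ifngr1 were higher in B cells, and Il10ra and Il21r each had an upstream tile at which T cells were far above B cells (means of 95.4 against 11.4% and 66.9 against 3.22%).

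Il18r1 (chr1:40465552-40500854, plus strand) codes for the ligand-binding chain of the interleukin-18 receptor, which belongs to the interleukin-1 receptor family. Of 43 tested tiles 7 were called, 6 with B cells higher and 1 with T cells higher. The largest difference, 68.66 points, was in intron 3 at chr1:40477001-40477500, a tile of 3 CpGs. There 7 B cell libraries ranged from 60.7 to 78.4% with a median of 72.7% and 8 T cell libraries from 0 to 8.11% with a median of 0% (quasi-binomial test, adjusted p = 1.501e-06). The tile higher in T cells lay in intron 1 at chr1:40470501-40471000, where the B cell libraries were spread from 22.6 to 65.9% and the T cell libraries from 66.7 to 83.1%. A called tile centred at -1302 bp from the TSS overlaps the neighbouring gene Il1rl1, which codes for the interleukin-33 receptor, and was at 77.9 ± 7.42% in B cells and 42.6 ± 5.85% in T cells.

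To ask whether the start sites differed too, calls were pooled over the promoters. At TSS ± 1 kb, with a limit of 10 points, 2.94% of 20775 promoters were called, 1.67% with B cells higher and 1.27% with T cells higher. Of the 10 receptor promoters 3 were called, Il2rb, Il2ra and Il7r, each higher in B cells, and 6 of the 10 had an unadjusted p under 0.05, against 26.1% of all promoters. The Il2rb promoter lay between 68.4 and 80.61% in B cells with a median of 76.9% and between 37.7 and 58.4% in T cells with a median of 46.5%. Its means of 75.7 ± 4.60% and 46.6 ± 7.73% differed by 29.1 points (quasi-binomial test, adjusted p = 6.01e-05). The Il2ra promoter ranged from 23.2 to 44.1% across the B cell libraries and from 6.10 to 17.5% across the T cell libraries, and its means of 32.7 ± 7.28% and 12.4 ± 3.47% differed by 20.3 points (quasi-binomial test, adjusted p = 0.000256). The Il7r promoter ranged from 40 to 54.0% across the B cell libraries and from 21.1 to 38.9% across the T cell libraries, and its means of 46.9 ± 5.50% and 30.5 ± 7.42% differed by 16.4 points (quasi-binomial test, adjusted p = 0.00226). These 3 promoters did not overlap between the cell types, which was the case for 3.63% of all promoters. The two-sided exact permutation test gave p = 0.000155 for each, the smallest that 8 against 8 libraries allow. Any such groups without overlap give this value, so it adds nothing to the lack of overlap. In T cells the BS libraries of Il2rb and Il7r lay above all their oxBS libraries, while those of Il2ra overlapped. The means were 52.4 and 40.8% at Il2rb and 36.8 and 24.2% at Il7r, so their T cell SD includes this split. Among the other receptor promoters only Il4ra, Il18r1 and Il27ra had it, and no share over all promoters is given.

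**Figure D4:**
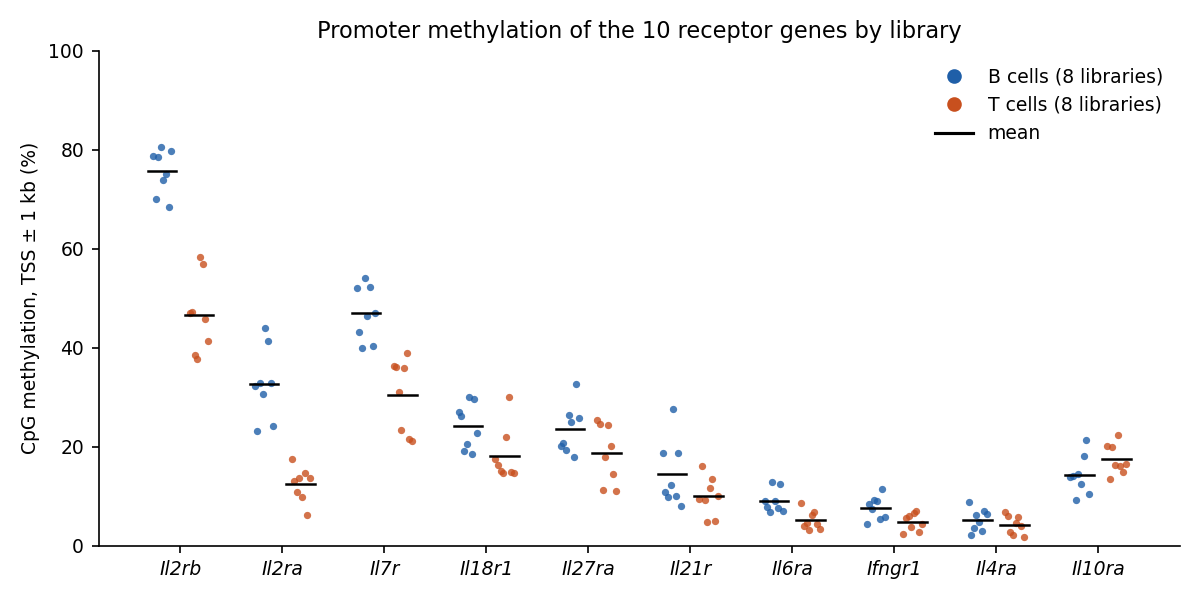
Methylation at TSS ± 1 kb (y axis, percent) of the 10 receptor genes in each of the 16 libraries, with the mean of each cell type as a bar, ordered by the difference between B and T cells. The B and T cell libraries of Il2rb, Il2ra and Il7r did not overlap, and those of the other 7 genes did.

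The other 7 promoters overlapped between the cell types and were not called. Their means in B cells were between 5.25% (Il4ra) and 24.2% (Il18r1) and their means in T cells were between 4.22% (Il4ra) and 18.6% (Il27ra). Their differences ran from -3.16 points at Il10ra to 6.01 points at Il18r1, and the smallest adjusted p was 0.0549, at Il6ra (quasi-binomial test). Within 2 kb of the TSS instead of 1 kb, the Il10ra promoter was called, with a difference of -13.0 points (quasi-binomial test, adjusted p = 0.00282). Within 500 bp the difference at Il7r was 9.25 points and was not called (quasi-binomial test, adjusted p = 0.202). The Il7r TSS used for tests and distances was the upstream end of the gene record, at position 9530176. The principal transcript starts further in, at 9529835, as does the RefSeq start of the printed promoter, at 9529876. The Il2rb promoter lost its call among male or BS libraries alone, and those of Il2ra and Il7r lost theirs in each of the 4 subsets of 4 against 4 libraries of 1 sex or 1 assay, where the differences were 15.95 to 24.6 points at Il2ra and 11.7 to 21.1 points at Il7r.

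The genes whose promoter levels over the 16 libraries were closest to those of Il2rb, by the root mean square difference among 20392 genes, were Cryba4 (5.94 points), Kdm6b (6.83 points) and Trim13 (7.23 points). Of 48 other cytokine receptor chains 9 (18.8%) were called at the promoter, against 2.94% of all promoters, 5 with B cells higher and 4 with T cells higher. An unadjusted p under 0.05 was found at 22 (45.8%), against 26.1% of all promoters. The median difference was 0.505 points, against 0.57 points over all promoters and 4.72 points over the 10 genes. The largest were Il9r (58.2% in B cells and 14.6% in T cells), Il1r2, a decoy receptor of interleukin-1 (64.4 and 90.04%), Csf2rb, the common beta chain (20.2 and 37.3%), Il12rb1, shared by the receptors of interleukin-12 and interleukin-23 (61.2 and 44.9%), Il17rb (24.3 and 8.14%) and Il1r1 (34.5 and 48.4%). Of 19 genes for JAK kinases, STAT factors and SOCS inhibitors none was called by the quasi-binomial test, and 7 (36.8%) had an unadjusted p under 0.05, against 26.1% of all promoters. Their median difference was 0.878 points. Cish, a SOCS family inhibitor induced by STAT5, was at 9.30% in B cells and 1.45% in T cells, with an adjusted p of 2.11e-06 (quasi-binomial test) but a difference below the limit of 10 points. It was named after its value was seen.

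Over the whole window from 5 kb upstream to the gene end, with a limit of 5 points, 9.65% of 21533 genes were called, 8.48% higher in B cells. Of the 10 receptor genes 7 were called, 6 higher in B cells and Il10ra higher in T cells (1.17% of all genes). Il6ra differed by 19.3 points (66.7 ± 2.37% in B cells and 47.4 ± 5.47% in T cells) and Il7r by 19.1 points (85.0 ± 1.44 and 65.9 ± 7.79%). Il4ra and Ifngr1 differed by 11.3 and 10.7 points, and Il18r1 and Il2rb by 6.88 and 5.73 points. With BS libraries alone Ifngr1, Il18r1 and Il2rb were not called, at 7.63, 3.71 and 4.15 points. Il10ra differed by -5.29 points (62.8 ± 3.63 and 68.1 ± 2.56%, quasi-binomial test, adjusted p = 0.0238). This call was lost without either of T cell libraries 5 and 15 or of B cell libraries 3, 4 and 11, which gave -4.81, -4.87, -4.59, -4.9 and -4.78 points. It was also lost with BS libraries alone (-7.58 points) and with oxBS libraries alone (-3.005 points). Il27ra and Il21r, at 6.40 and 6.09 points, had adjusted p of 0.0903 and 0.0922, and Il2ra had means of 76.58% (B cells) and 76.0% (T cells). The median difference was 6.64 points over the 10 genes and 1.12 points over all gene windows.

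The spread of the T cell libraries in these windows followed the assay. In T cells the 4 BS libraries of 9 genes, all but Il2ra, lay above all 4 oxBS libraries, which was the case for 15.5% of all gene windows. In B cells BS and oxBS libraries overlapped at all 10 genes, and the BS libraries lay above in 0.651% of all gene windows. At Il7r the T cell libraries lay between 71.8 and 74.98% with BS and between 57.3 and 60.7% with oxBS, a difference of 14.4 points, and the B cell libraries lay between 84.9 and 86.8% and between 82.61 and 86.4%. At Il21r the T cell means were 56.2 ± 1.52% with BS and 43.1 ± 0.991% with oxBS, at Il27ra 69.9 ± 0.991 and 59.3 ± 1.46%, at Il6ra 52.5 ± 1.01 and 42.3 ± 0.427%, and at Il4ra 61.9 ± 0.885 and 53.1 ± 1.03%. The same differences in B cells were 0.0114 points at Il21r, -3.82 at Il27ra, -0.488 at Il6ra and -2.13 at Il4ra. The median BS minus oxBS difference over the 10 genes was 7.03 points in T cells and -0.287 points in B cells, against 0.961 and -0.472 points over all gene windows.

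**Figure D5:**
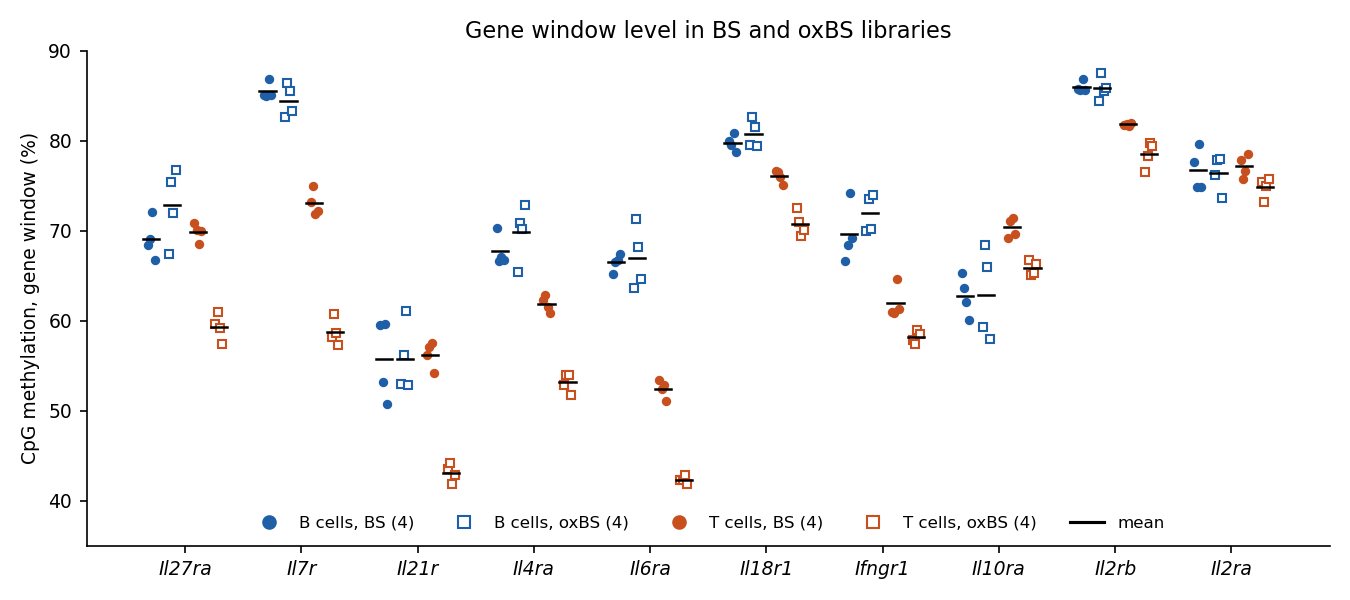
Methylation of the gene window, from 5 kb upstream of the TSS to the gene end (y axis, percent, starting at 35%), in each library by cell type and assay, with the mean of 4 libraries as a bar and genes ordered by how much the BS minus oxBS difference was larger in T than in B cells. In T cells BS libraries lay above oxBS libraries at all genes but Il2ra, by 14.4 points at Il7r, and in B cells they overlapped.

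An interaction of cell type and assay, fitted after the data were seen, tested whether this difference was unlike in the cell types. It passed an adjusted p of 0.05 in 4.03% of all gene windows and in 6 of the 10 receptor genes: Il7r (adjusted p = 0.00727 in the quasi-binomial model), Il27ra (0.0155), Il4ra (0.018), Il18r1 (0.0181), Il6ra (0.0222) and Il21r (0.0455). In T cells alone the assay term passed in 5.6% of gene windows and in 7 of the 10 genes, these 6 and Il10ra, while in B cells alone it passed in 0% of windows. Leaving out 1 library at a time gave 4 to 7 genes. Il21r passed in 3 of these 16 fits, and Il6ra lost its call without B cell library 2 or T cell library 14 (adjusted p = 0.0532 and 0.0507 in the quasi-binomial model). In females or in males alone, with fewer libraries, the interaction passed at 0 of the receptor genes. The spike-in controls of oxidation were not analysed here, so the part of conversion efficiency was not tested.

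At single tiles the test between BS and oxBS libraries called none of the 445 tiles, as it called 0% of the genome's tiles, and 113 (25.4%) had an unadjusted p under 0.05, against 5.28% of the genome. The median BS minus oxBS difference in T cells was 5.25 points over the 445 receptor tiles, against 0.884 points over all tiles of the genome, and 4.71 points over the 353 receptor tiles not called between B and T cells. It was 11.9 points over the 81 receptor tiles higher in B cells, against 8.51 points over the 44144 such tiles of the genome. Over the receptor tiles with a T cell level between 20 and 80% it was 15.1 points, against 2.47 points over all such tiles, and in B cells it was 0.286 and -0.107 points. These tiles were chosen by their T cell level, and tiles with such a level in B cells were not compared. Fewer tiles were called between B and T cells within 1 assay than in all 16 libraries. With BS libraries alone 26 receptor tiles (6.07% of those tested) were called and with oxBS libraries alone 47 (11.1%), while the shares over the genome were 0.807% and 1.23%. Il2ra had 0 called tiles in each, Il4ra had 3 and 7, and Ifngr1 had 1 and 2. At the gene windows of Il21r and Il27ra B cells were higher by 12.65 and 13.6 points with oxBS alone, and the differences were -0.473 and -0.799 points with BS alone. The interaction of cell type and assay called no receptor tile or promoter, with 90 tiles (20.2%) and 3 promoters at an unadjusted p under 0.05, against 4.63% and 10.4% of all.

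None of the 445 tiles was called between female and male libraries by the quasi-binomial test, and 0.0759% of the genome's tiles were called. Of the receptor tiles 7 (1.57%) had an unadjusted p under 0.05, against 3.1% of the genome, and the median difference was 0.221 points higher in females. The interaction of cell type and sex called none of the tiles, with 8 (1.8%) at an unadjusted p under 0.05 against 2.68% of the genome, and none of the promoters, with 1 of 10 against 3.34% of all promoters.

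Exact matches to short motifs of lymphoid transcription factors were counted on both strands of the called tiles, where a match to 1 motif may overlap a match to another. Shares are given beside those of all tiles tested in the genome and of the 353 tiles of the receptor genes that were not called. The RUNX motif TGTGGT was in 30 of the 81 tiles higher in B cells (37%), against 32.7% and 38%, and the STAT motif TTCNNNGAA was in 15 (18.5%), against 16.2% and 16.4%. The PU.1 motif GAGGAA was in 38 (46.9%), against 39.9% and 37.7%, and the E-box CAGGTG in 34 (42%), against 32.1% and 37.7%. The TCF1/LEF1 motif CTTTGAA was in 11 (13.6%), against 11.5% and 8.5%, the NF-kB motif (GGGA and CC around any 4 bases) in 19 (23.5%), against 19.2% and 27.2%, and the GATA motif AGATAA in 14 (17.3%), against 25.1% and 20.7%. Of the 11 tiles higher in T cells 8 held the PU.1 motif, 6 the RUNX motif, 4 the STAT motif, 4 the E-box, 2 the NF-kB motif, 1 the TCF1/LEF1 motif and none the GATA motif. The EBF1 motif (TCCC and GGGA around any 2 bases) was in 2 of these 11 tiles, in 1 of the 81, in 1.16% of all tiles and in 2.83% of the uncalled tiles of these genes. The Il10ra upstream tile held matches to the RUNX, STAT and PU.1 motifs, and the Il7r intron 2 tile to the STAT, PU.1 and GATA motifs.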

How the data were processed

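Whole genome bisulphite sequencing was done on 16 libraries. The authors trimmed reads with Trim Galore (0.6.0), aligned them to mm10 with Bismark (0.20.0, with SAMtools 1.3.1), kept alignments with a mapping quality of at least 10, added the strands and deposited, for each CpG, counts of unmethylated and methylated calls. CpGs without calls are not listed. B male BS libraries 1 and 4 listed 242 and 243 positions on other contigs, against 16429 to 17017 in the other libraries. The reason was not tested, and those positions were not used. Sequencing depth of 5.64 to 7.80 calls per CpG limits the precision of single CpGs, and intervals cover counting error only, as reads are not independent molecules.

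Calls at reference CpGs were added over 500 bp tiles, over TSS ± 1 kb and over gene windows from 5 kb upstream. A tile needed 3 CpGs, a promoter or window 5, and 5 libraries of each cell type with 20 calls. A quasi-binomial logistic model with cell type, sex and assay was fitted with numba 0.67.0 (dispersion held at 1 or more, F test on the deviance) to every feature, with Benjamini-Hochberg adjustment over all. Levels are means of libraries. The model was tested on simulated calls for 500 bp tiles of chromosome 19, and not for promoters, gene windows or interactions. Limits were 20, 10 and 5 points. Named were all 10 genes, their largest called tile in each direction and stretches of 3 or more called tiles, at most 6 called promoters per gene list, and 3 genes most like the promoter that differed most. The genes and lists were chosen with earlier results of these data known. Alternatives are given below. Same-group libraries differed beyond sampling noise, with a mean squared standardised difference of 1.19 to 1.36 over tiles of chromosome 19.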

Additional observations from a re-analysis of the deposited data

Results flagged for a closer look

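Among 70 groups of up to 8 libraries (the promoter, the gene window and the tiles with the largest difference of each gene, by cell type), 3 had a library that stood apart by Dixon's test, where chance would flag about 1 in 20. In the intron 1 tile of Il2ra higher in B cells, B male BS replicate 4 was at 47.6% and the next library at 67.7%, a gap of 0.687 of the range. In the intron 4 tile of Il4ra higher in T cells, B female oxBS replicate 9 was at 31.2% and the next library at 45% (0.601 of the range). In the intron 3 tile of Il18r1 higher in B cells, T male BS replicate 7 was at 8.11% and the next library at 3.70% (0.543 of the range). These 3 tiles stayed called without each library in turn, by the unadjusted p limit of the full fit.

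The BS minus oxBS difference of the gene window was larger in T than in B cells by a test of the difference itself, the interaction of cell type and assay in the quasi-binomial model, at 6 genes. The adjusted p was 0.00727 for Il7r, 0.018 for Il4ra, 0.0222 for Il6ra, 0.0455 for Il21r, 0.0181 for Il18r1 and 0.0155 for Il27ra. In females or in males alone the interaction passed at 0 of the receptor genes.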

How the results depend on the processing

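No paired analysis was possible because the library numbers run from 1 to 16 without repeats and mark no shared pool. The 92 called receptor tiles became 59 with a limit of 30 points and 53 with at least 40 calls (45 higher in B cells), which was 20.9% of the 254 tiles then tested, against 3.42% of the genome. Among 4 against 4 libraries there were 26 with BS (21 and 5 higher in B and T cells), 47 with oxBS (43 and 4), 22 in females (18 and 4) and 28 in males (24 and 4). In females and males these were 5.02% and 6.51% of the receptor tiles then tested, against 0.804% and 0.812% of the genome. The 11 tiles higher in T cells became 22 with a limit of 10 points, 4 with 30 points, 19 with 250 bp tiles and 7 with 1000 bp tiles. Leaving out 1 library gave 86 to 95 tiles, 75 to 85 higher in B cells and 10 to 12 higher in T cells, and 82 of the 92 were called every time. These refits of tiles kept the unadjusted p limit of 0.00298 (quasi-binomial test) that matched the adjusted limit in all 16 libraries. They applied no new adjustment and no new minimum number of libraries.

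Called promoters went from 3 to 0 with BS or male libraries alone and to 1 with oxBS or female libraries alone, and leaving out 1 library gave 3 and 0 in the directions each time. The Il7r promoter difference of 16.4 points was under a limit of 20 points, and was not called at 11.7 (BS), 21.1 (oxBS), 15.7 (female), 17.2 (male) or 9.25 points (TSS ± 500 bp). Il2ra was not called at 21.5 (BS), 19.1 (oxBS), 15.95 (female) or 24.6 points (male), nor Il2rb at 22.1 (BS) or 23.7 points (male). With BS alone the uncalled differences at Il4ra and Il27ra turned to -1.07 and -2.67 points, and within 500 bp that at Il6ra turned to -0.0397 points. Within 2 kb 1 promoter, Il10ra, was called higher in T cells at -13.0 points.

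Called gene windows were 3 with BS alone, all 3 higher in B cells and 0 in T cells. With oxBS alone 0 were higher in T cells. Leaving out 1 library gave 6 to 8, with 6 to 8 higher in B cells and 0 to 1 in T cells. With BS alone the uncalled windows of Il2ra, Il21r and Il27ra turned to -0.42, -0.473 and -0.799 points, whereas with oxBS alone Il21r and Il27ra were called at 12.65 and 13.6 points. Both were also called without B cell library 4, at 6.80 and 7.01 points. The interaction at gene windows passed at 0 genes in females or males alone, and at 4 to 7 when 1 library was left out. The cause of these changes was not tested, beyond that the subsets hold fewer libraries. Of the alternative values for the tile count, the window and the interaction of single genes, 634 were unchanged by the limits used (a count within 1.5 times, otherwise the same direction and side of the threshold), 61 counts moved further, 37 values lost a call, 5 gained one and 3 reversed. Of those for the promoter differences and the counts over all 10 genes, 544 were unchanged, 39 moved, 12 lost a call, 1 gained one and 3 reversed. Many alternatives repeat values of the main fit or share most libraries with it, so these tallies are no measure of robustness. Of the 654 tiles of these genes 445 had enough CpGs and calls to be tested, and the others are not described.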
